A study of Mus musculus with 6 samples.

Results

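The growth hormone and IGF axis was represented by 9 genes, Ghr, Stat5b, Socs2, Cish, Igf1, Igfals, Igfbp1, Igfbp2 and Igfbp4, chosen by name as growth hormone signalling and IGF binding genes and read from a count table of 25184 genes. All 9 were expressed in cultured hepatocytes above the minimum used for testing, a mean normalized count above 5, which 15105 genes passed. Gene expression was measured by stranded mRNA sequencing in primary hepatocytes of 3 Sucnr1 fl/fl control mice and 3 Hep-Sucnr1 KO mice, to ask what the loss of the succinate receptor SUCNR1 changes in these cells. Both groups carried Sucnr1 alleles with loxP sites around exon 2 and were fed chow. The KO mice also carried Alb-Cre +/-, a Cre recombinase under the albumin promoter, which is active in hepatocytes, whereas the controls were Alb-Cre -/-. The methods give a C57BL6J background for the Alb-Cre line. Hepatocytes from the left lateral liver lobe were freed by enzymatic digestion, separated on a density gradient and kept overnight on collagen in a high-glucose medium with fetal bovine serum, pyruvate and glutamine. Growth hormone, insulin and glucocorticoid were not among the additives listed for that medium. Of each genotype 1 library (control 1 and KO 3) was labelled extraction day 1 and 2 libraries (controls 2 and 3, KO 4 and 5) extraction day 2. The labels gave neither the age nor the sex of these mice.

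Growth hormone binds its receptor GHR, which activates the kinase JAK2 and then the transcription factor STAT5B. In the liver STAT5B raises the transcription of Igf1 and Igfals and of the inhibitors Socs2 and Cish, which dampen the signal in return. IGF1 leaves the hepatocyte and circulates bound to IGF binding proteins, and the acid labile subunit encoded by Igfals stabilizes the large circulating complex. Igfbp1 and Igfbp2 respond to nutrition, and insulin represses Igfbp1 through FOXO1.

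Promoter windows from RefSeq (GRCm38.p6), running from 250 bases before to 50 bases after a gene's start, were found for 8 of the 9 genes, with 13 windows in all. Stretches are shown for Cish and Igfals, known targets of STAT5, where the STAT motif was found, and for Igfbp1, the most abundant of the 9. The motif TTCNNNGAA, the core bound by STAT factors, was searched in each window (it reads the same on both strands) and stood in 3 of the 13 windows, against 8.3% of the 32851 windows in the table. Cish held 2 copies side by side, at positions 1 to 9 and 12 to 20 counted from 1 at the start. Igfals held 1 copy in each of 2 windows, at -236 to -228 and at -58 to -50 of their own starts. The first line below lies at chr9:107296559-107296678, the second at chr17:24877594-24877713 and the third at chr17:24878111-24878230, each on the plus strand, with the motif in capitals.
Cish, -100 to 20: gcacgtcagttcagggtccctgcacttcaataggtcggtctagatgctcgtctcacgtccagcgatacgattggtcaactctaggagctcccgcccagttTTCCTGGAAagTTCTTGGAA
Igfals, -250 to -131: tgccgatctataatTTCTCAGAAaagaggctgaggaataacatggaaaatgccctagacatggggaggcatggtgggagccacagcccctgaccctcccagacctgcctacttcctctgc
Igfals, -120 to -1: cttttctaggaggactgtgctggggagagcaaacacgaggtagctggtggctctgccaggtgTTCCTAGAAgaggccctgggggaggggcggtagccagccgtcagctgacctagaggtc

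The Igfbp1 window held CAAAACA at -108 to -102, which occurred, on either strand, in 6.28% of all windows. CAAAACA belongs to the insulin response element known from Igfbp1 promoters. The stretch below lies at chr11:7197637-7197786 on the plus strand, with the motif in capitals.
Igfbp1, -150 to -1: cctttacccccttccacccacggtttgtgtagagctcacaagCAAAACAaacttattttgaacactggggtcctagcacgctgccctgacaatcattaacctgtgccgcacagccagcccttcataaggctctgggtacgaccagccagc

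Among the remaining matches, TGTTTAC, a forkhead motif found in 3.65% of windows on either strand, stood in 1 Igfals window at -242 to -236. TATAAA, found in 13.6% of windows, stood in the Igfbp4 window at -28 to -23 and, on the reverse strand, in a Ghr window at -188 to -183. These matches describe letters and were not tested as sites.

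Library totals lay between 30504248 and 38770694 counts, and the common biological coefficient of variation was 0.206. Sucnr1, the targeted gene, had 6.71, 3.55 and 3.40 CPM (counts scaled to the library total with TMM factors) in controls 1, 2 and 3 and 2.66, 0.827 and 0.152 CPM in KO 3, 4 and 5. Each KO library was below each control library (exact permutation p = 0.1, the smallest that 3 against 3 allows), with a log2 fold change of -2.23 ± 0.54 (SE). edgeR's quasi-likelihood test with extraction day in the model called 0 of 15105 genes at an adjusted p below 0.05 (0% of genes) for genotype, whereas 563 genes had an unadjusted p below 0.05 and DESeq2 called 7 (0.0463%), Sucnr1 among them (adjusted p = 0.0386). Alb, a hepatocyte marker, lay between 37120 and 68925 CPM, Xist had 0 or 1 counts in every library, and the Y-linked Ddx3y was present in every library at 54.7 to 69.2 CPM. Nothing but the labels says that the libraries came from separate mice, so p values measure the spread between these 6 libraries.

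The 9 genes spanned more than 2 orders of magnitude in level per length. RPKM, here the CPM divided by the length of the merged annotated exons in kilobases, averaged 751 ± 161 (SD, n = 6 libraries) for Igfbp1, the 85th of 15084 genes with a length in order of level. Igfbp2 followed at 139 ± 22.3 and Igfbp4 at 128 ± 8.61, then Ghr at 27.9 ± 4.24, Igf1 at 25.3 ± 4.17 and Stat5b at 17.6 ± 4.56. Igfals stood at 7.85 ± 1.65, Cish at 7.30 ± 1.70 and Socs2 at 2.24 ± 0.79 RPKM, which placed Socs2 near the middle of all genes (percentile 50.7). The ranges over the 6 libraries did not overlap between Igfbp1 and Igfbp2, Igfbp4 and Ghr, Stat5b and Igfals, or Cish and Socs2. They did overlap between Igfbp2 and Igfbp4, Ghr and Igf1, Igf1 and Stat5b, and Igfals and Cish. Within a library Igfbp2 was above Igfbp4 in 5 of 6 libraries, Igf1 above Stat5b in 5, Ghr above Igf1 in 4 and Igfals above Cish in 3. With the length of the longest annotated transcript in place of merged exons, Ghr moved to 60.4, Igf1 to 35.5 and Socs2 to 5.02 RPKM, and Cish (9.98) came to stand above Igfals (9.47).

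**Figure D1:**
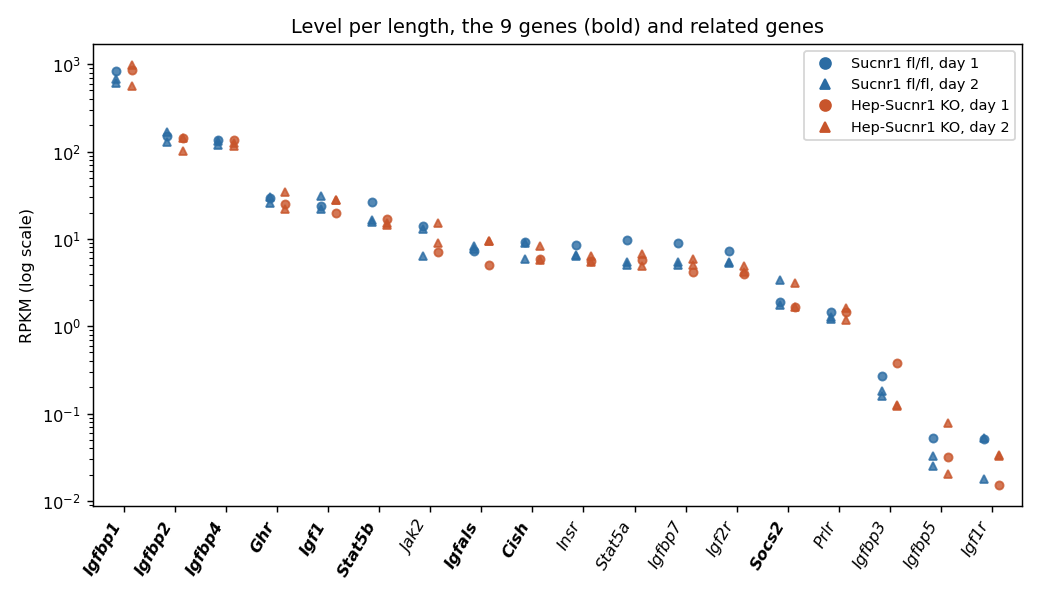
RPKM (log axis) of the 9 genes, in bold, and of 9 related genes in each of the 6 libraries, ordered by their mean, with blue for Sucnr1 fl/fl, orange for Hep-Sucnr1 KO, circles for extraction day 1 and triangles for day 2. Igfbp1 lies above every other gene shown, between 558 and 979 RPKM, and Igf1r, Igfbp5 and Igfbp3 lie below 1 RPKM in all 6 libraries.

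The binding proteins were thus unequally represented. Of the summed RPKM of the 6 Igfbp genes tested, Igfbp1 made up 66.8 to 80.7% in the 6 libraries, Igfbp2 8.41 to 18.3% and Igfbp4 10.4 to 14.3%. Igfbp7 made up 0.373 to 0.796%, Igfbp3 at most 0.0331% and Igfbp5 at most 0.00648%, and Igfbp6 was under the minimum for testing with 0 to 7 counts. Igfbp3, which encodes the main IGF carrier of the blood, is the convergent neighbour of Igfbp1 on chr11 with 3.54 kb between them, and Igfbp5 that of Igfbp2 on chr1 with 5.46 kb between them. Within a library the RPKM of Igfbp1 was 2270 to 7980 times that of Igfbp3, and the RPKM of Igfbp2 was 1300 to 7150 times that of Igfbp5. The receptor for the ligand was low in the same way: Igf1r had 0.253 to 0.890 CPM, and Insr, the insulin receptor, exceeded it 121 to 371 times in RPKM. Igf2, the second ligand, had 0 or 1 counts in every library.

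Ghr, the growth hormone receptor gene (chr15:3317760-3583492, minus strand, up to 11 exons in a transcript), had 265, 235 and 271 CPM in controls 1, 2 and 3 and 229, 311 and 201 CPM in KO 3, 4 and 5. The KO libraries held both the highest and the lowest value, so the groups overlapped, with means of 257 ± 19.4 and 247 ± 56.8 CPM (SD, n = 3 each). Stat5b, which carries the receptor's signal to the nucleus (chr11:100780731-100850724, minus strand), had 148, 86.2 and 91.6 CPM in the controls and 94.4, 83.9 and 80.3 CPM in the KO libraries. Control 1 stood apart and the other 5 libraries lay within a narrow band. The log2 fold change was -0.29 ± 0.14 (SE), with a 95% interval of -0.62 to 0.04. Without control 1 it was -0.12. Stat5a, the paralog of Stat5b, lies 8.63 kb away on the opposite strand and followed it, at 68.5 CPM in control 1 and 35.0 to 47.4 CPM elsewhere, but reads that match both genes could have been assigned to either or dropped, which makes both values uncertain. Stat3, the next gene on that chromosome, was also highest in control 1, at 363 CPM against 226 to 282 CPM.

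Socs2 and Cish, the feedback inhibitors, varied between libraries of the same genotype and day. Socs2 (chr10:95385362-95417180, minus strand) had 18.1, 32.1 and 16.6 CPM in controls 1, 2 and 3 and 15.6, 29.7 and 15.8 CPM in KO 3, 4 and 5. Control 2 and KO 4 were high, and the other 4 libraries lay between 15.6 and 18.1 CPM. Cish (chr9:107296026-107302784, plus strand, up to 3 exons) had 58.6, 58.3 and 37.3 CPM in the controls and 37.4, 52.9 and 36.5 CPM in the KO libraries. The same 2 libraries were high, here together with control 1, and the other 3 lay between 36.5 and 37.4 CPM. Neither split followed genotype or extraction day, and the groups overlapped for both genes. Within a library Cish exceeded Socs2 2.65 to 4.81 times in RPKM. Control 2 and KO 4 also had the lowest sums over the 11 hepatocyte markers present, 83960 and 76850 CPM against 87520 to 111300 CPM in the other libraries, a sum in which Alb is the largest part. Single hepatocyte markers went both ways in these 2 libraries. Cyp2e1, a pericentral cytochrome P450, was highest there, with 2078 and 3430 CPM against 684 to 1429 CPM elsewhere. Apob, which encodes an apolipoprotein, had 3419 and 3258 CPM against 2522 to 2949.6 CPM, and Hnf4a was highest there too. Ttr, Apoa1, Ass1, Trf and Asgr1 were instead lowest in these 2 libraries, Ttr with 2825 and 2787 RPKM against 3049 to 3563 RPKM. Alb, Cps1 and Serpina1a did neither. The part of these markers in the Socs2 values was not tested.

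Igf1, the hormone itself (chr10:87858265-87937042, plus strand), had 236, 216 and 306 CPM in the controls and 197, 276 and 273 CPM in the KO libraries. The highest value belonged to a control and the lowest to a KO library, and the group means were 252 ± 47.2 and 249 ± 44.9 CPM. Igfals (chr17:24865997-24882010, plus strand), which encodes the acid labile subunit, had 22.9, 24.3 and 26.3 CPM in the controls and 15.9, 29.6 and 30.2 CPM in the KO libraries. KO 3 lay below all controls and KO 4 and 5 above all of them. On day 1 the KO library was thus 0.52 lower than the control on the log2 scale (a difference of -0.52), and on day 2 the KO mean was 0.24 higher. The difference between the day 2 and day 1 effects, tested with an interaction term in edgeR after these values had been seen, was 0.76 ± 0.24 (unadjusted p = 0.0195, adjusted p = 1). Of all genes, 3.69% had an unadjusted p below 0.05 for that term, and day 1 had 1 library of each genotype.

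KO 3 was the lowest library for both genes, and control 3, KO 4 and KO 5 were the 3 highest. The sum over markers of Kupffer cells, the liver macrophages, was highest and lowest in the same libraries. Not every marker followed this order: Cd68 had 31.1 RPKM in control 1, 14.8 in control 2, 23.1 in KO 3 and 19.3 in KO 4. Marco was slightly higher in control 1 (2.00 RPKM) than in KO 4 (1.98 RPKM). Macrophages are known to make IGF1 too. The summed CPM of the 10 markers was 77.0, 52.8 and 163 in controls 1, 2 and 3 and 36.3, 130.2 and 115 in KO 3, 4 and 5, so it ranged from 52.8 to 163 in the controls and from 36.3 to 130.2 in the KO libraries. None of the 10, which include Clec4f, Vsig4 and Timd4, was at 0 in any library. Their part in the values of Igf1 and Igfals was not tested, and in such bulk libraries fewer cells of a type cannot be told apart from less RNA per cell.

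**Figure D2:**
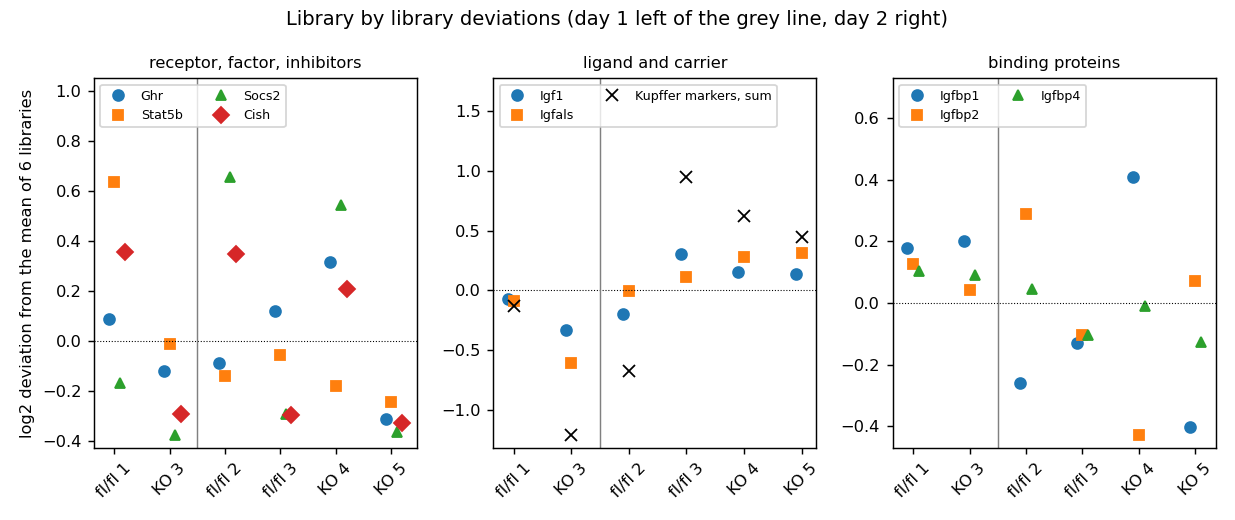
Log2 CPM of a library minus the 6-library mean (y axis) for each of the 9 genes by library (x axis), with the 2 day 1 libraries left of the grey line; crosses in the middle panel give the same for the summed Kupffer cell markers. Socs2 lies 0.66 and 0.54 above its mean in control 2 and KO 4, Stat5b 0.64 above in control 1, and Igfals 0.61 below (-0.61) in KO 3.

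Of the binding proteins, Igfbp1 (chr11:7197782-7202546, plus strand, 4 exons) had 1271, 939 and 1027 CPM in the controls and 1293, 1493 and 851 CPM in the KO libraries. The KO libraries again held both extremes. Igfbp2 (chr1:72824503-72852474, plus strand) had 277, 310.4 and 237 CPM in the controls and 261, 189 and 267 CPM in the KO libraries. KO 4, the library with the most Igfbp1, had the least Igfbp2, and the RPKM ratio of Igfbp1 to Igfbp2 was 9.59 there against 3.66 to 5.99 in the other 5 libraries. Igfbp4 (chr11:99041244-99054392, plus strand), whose product restrains IGF action in tissues, was the steadiest of the 9 genes. It had 604, 581 and 524 CPM in the controls and 599.9, 558 and 515 CPM in the KO libraries, a log2 range of 0.23 over all 6, against 1.03 for Socs2.

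**Figure D3:**
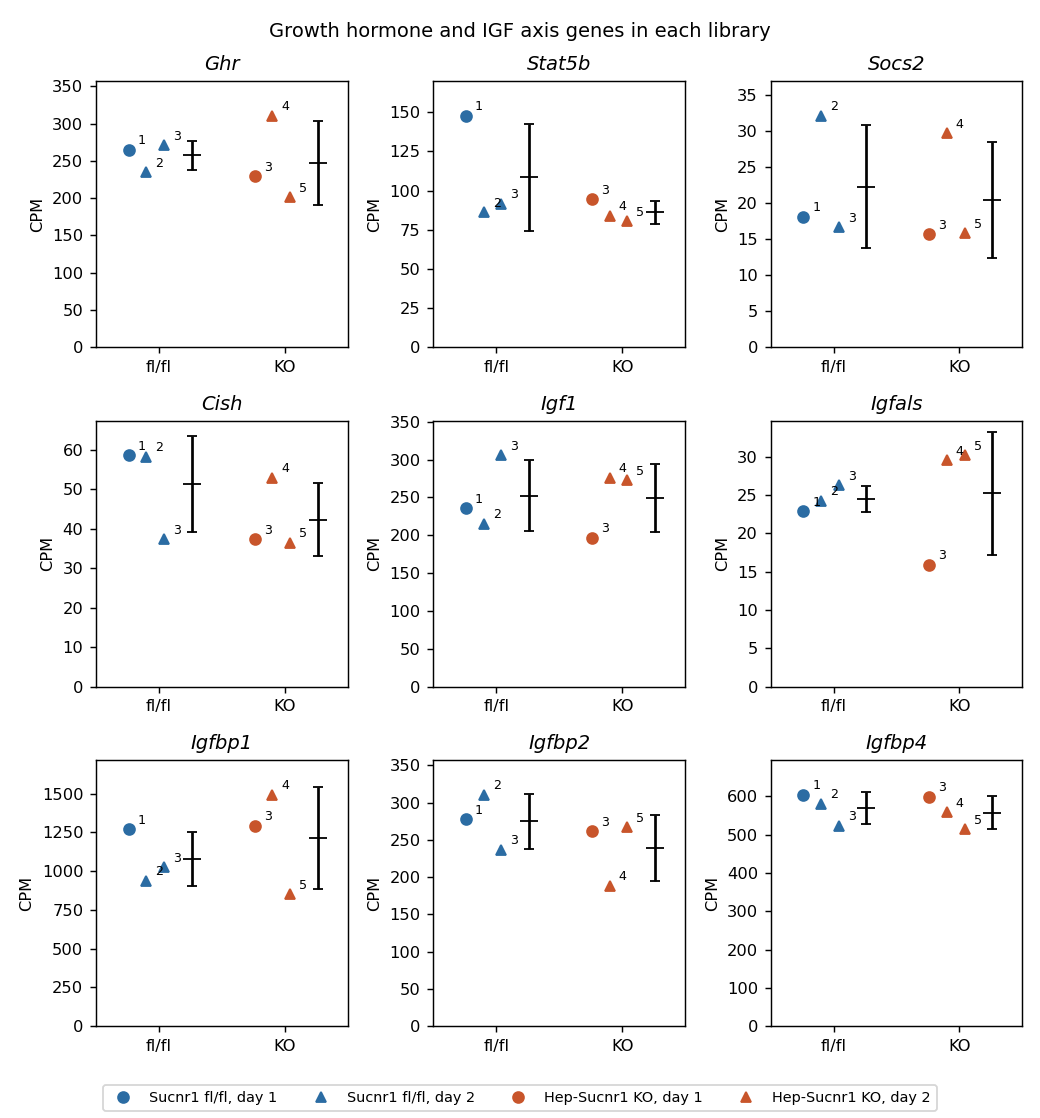
CPM (y axis, from 0) of the 9 genes in each library, with the replicate number beside each point, blue for Sucnr1 fl/fl, orange for Hep-Sucnr1 KO, circles for day 1 and triangles for day 2; the black bars give the mean and SD of 3 libraries. The points of the genotypes overlap in every panel, and Socs2 shows 2 libraries, 1 of each genotype, near 30 CPM and 4 between 15.6 and 18.1 CPM.

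None of the 9 genes passed the test for genotype: 0 of 9 had an unadjusted p below 0.05, where 3.73% of all genes tested did, and the adjusted p was 0.998 for each. The exact permutation p on CPM lay between 0.3 (Cish) and 1 (Igf1 and Igfals). In 0 of 9 did the groups fail to overlap, against 10.6% of all genes. The log2 fold changes, KO against control, were -0.06 ± 0.19 (SE) for Ghr, -0.14 ± 0.31 for Socs2, -0.28 ± 0.23 for Cish, -0.04 ± 0.17 for Igf1 and -0.01 ± 0.17 for Igfals. They were 0.18 ± 0.23 for Igfbp1, -0.20 ± 0.18 for Igfbp2 and -0.03 ± 0.13 for Igfbp4. The estimate was below 0 for 8 of the 9 and their median was -0.06, beside 0.003 over all genes, where 7481 of 15105 were below 0. The intervals state how large a difference these libraries leave possible: the 95% interval was -0.43 to 0.36 for Igf1, -0.33 to 0.27 for Igfbp4 and -0.86 to 0.59 for Socs2. Leaving out 1 library turned the direction for Ghr, Socs2, Igf1, Igfals, Igfbp1 and Igfbp4.

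**Figure D4:**
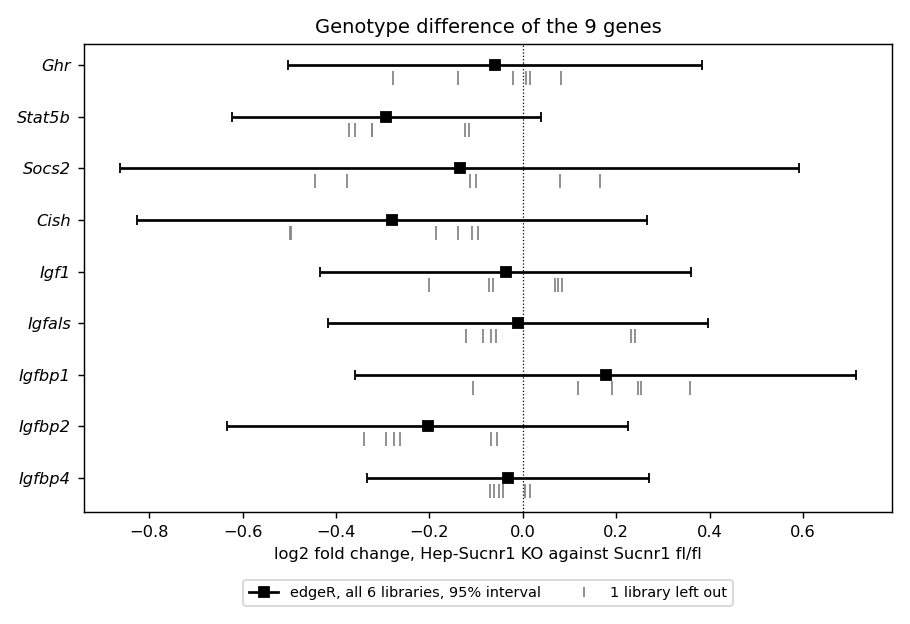
Log2 fold change between genotypes, KO over control (x axis), for the 9 genes, with squares and bars for the edgeR estimate and its 95% interval over all 6 libraries and grey ticks for the estimate with 1 library left out. Every interval includes 0, the narrowest being that of Igfbp4 (-0.33 to 0.27).

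The same test for extraction day called 0 genes at an adjusted p below 0.05 (0%), with 7.49% of genes at an unadjusted p below 0.05 and 1.46% called by DESeq2. Of the 9 genes 2 had an unadjusted p below 0.05. Stat5b had a log2 difference, day 2 against day 1, of -0.48 ± 0.15 (unadjusted p = 0.014, adjusted p = 0.541), and the difference was -0.20 without control 1 and -0.77 without KO 3. Igfals had a difference of 0.51 ± 0.19 (unadjusted p = 0.0299, adjusted p = 0.573), and the value was 0.11 without KO 3 and 0.91 without control 1. For the other 7 genes the day 2 against day 1 value lay between -0.26 (Igfbp1) and 0.48 (Socs2).

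In the wider list of growth hormone receptor signalling, 22 of 23 genes were tested and 0 had an unadjusted p below 0.05 for genotype. The 18 that are not among the 9 genes had a median log2 fold change of -0.07. Jak2, the kinase bound to the receptor, ranged from 32.1 to 76.2 CPM with both extremes split between the genotypes, and its value was -0.11 ± 0.38. The largest values in this list were 0.30 ± 0.22 for Ptpn6, a tyrosine phosphatase of blood cells, and -0.29 for Stat5b. By day, 4 of the 18 had an unadjusted p below 0.05, against 7.49% of all genes, all with higher values on day 2, among them Socs1 by 0.76, Sirpa, a receptor of macrophages, by 1.49 and Ptpn6 by 0.62 (none past the adjusted threshold). The Kupffer markers were also higher on day 2 in 9 of 10, with a median of 2.06, and their part in these values was not tested. The marker sum was lowest in KO 3 of day 1 (36.3 CPM). In control 2 of day 2 it was 52.8 CPM, below control 1 of day 1 (77.0 CPM). Sirpa had 2.80 CPM in control 2, 2.97 CPM in control 1 and 1.90 CPM in KO 3. Socs1 (6.50 against 4.01 CPM) and Ptpn6 (6.20 against 6.06 CPM) were higher in control 2 than in control 1.

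In the list of the IGF system 19 of 25 genes were tested for genotype and 0 passed the adjusted threshold. Of the 14 that are not among the 9 genes 13 had a log2 fold change below 0, with a median of -0.31 beside 0.003 over all genes. In 2 of the 14 every KO library lay below every control library, which 4.04% of all genes did, and 2 of 14 had an unadjusted p below 0.05, against 3.73% of all genes. Igf2r, which carries IGF2 to lysosomes, had 67.7, 48.9 and 50.9 CPM in the controls and 37.3, 39.1 and 45.9 CPM in the KO libraries, a log2 fold change of -0.44 ± 0.16 (unadjusted p = 0.0264, adjusted p = 0.998). Insr had 118, 89.4 and 88.1 CPM in the controls and 76.9, 87.1 and 74.0 CPM in the KO libraries (-0.30 ± 0.14, unadjusted p = 0.0711). Irs2, an adaptor of the insulin and IGF1 receptors, had 87.7, 72.7 and 51.2 CPM in the controls and 48.5, 55.4 and 43.7 CPM in the KO libraries (-0.50 ± 0.19, unadjusted p = 0.0358).

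Control 1 was the highest library for all 3 genes, and without it the values were -0.23 for Igf2r, -0.14 for Insr and -0.32 for Irs2, with no unadjusted p below 0.05. Without KO 3 they were -0.24, -0.15 and -0.33, again with none below 0.05. The 10 sinusoidal endothelial markers also summed highest in control 1, to 79.1 CPM against 33.0 to 51.0 CPM elsewhere, with ranges of 41.9 to 79.1 in the controls and 33.0 to 51.0 in the KO libraries and none at 0 in any library. The sum over 10 stellate cell markers was 22.9 CPM in control 1 and 3.81 to 8.71 CPM in the other 5, with ranges of 5.05 to 22.9 in the controls and 3.81 to 8.71 in the KO libraries, and Col3a1, Des and Ngfr were at 0 in at least 1 library. The part of either in the IGF list was not tested. Igfbp5, the only one of the 14 above 0, had 0.121 to 0.473 CPM and the widest error of the list (0.26 ± 0.65). Other low-level genes were Pappa2, a protease of IGF binding proteins, with 0.121 to 0.520 CPM (-0.85 ± 0.42), Stc1 (-0.67 ± 0.49), Igf1r (-0.61 ± 0.55) and Irs1 (-0.46 ± 0.45).

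**Figure D5:**
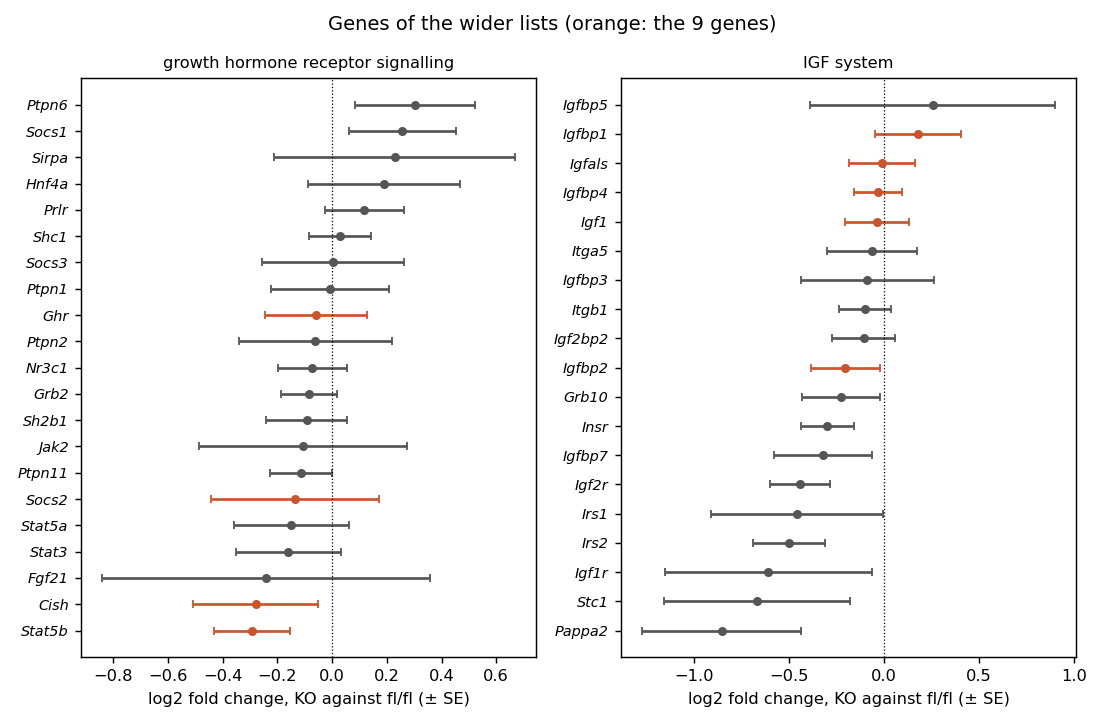
Log2 fold change between genotypes, KO over control (x axis, bars are the SE), for tested genes of the growth hormone receptor signalling list (left, 21 of the 22 tested) and the IGF system list (right, 19 genes), with the 9 genes in orange. On the left 14 of 21 genes lie below 0 and on the right 17 of 19.

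Of the 18 genes listed as dependent on STAT5 in liver, all were tested, 7 were above 0 and 11 below, and the median was -0.02. Of the 14 that are not among the 9 genes, 7 were above 0 and 7 below, with a median of 0.005. Lepr, the leptin receptor, had the lowest value, with 10.2, 8.54 and 8.08 CPM in the controls and 3.26, 5.38 and 4.61 CPM in the KO libraries. Every KO library was below every control library, with a log2 fold change of -1.03 ± 0.22, an adjusted p of 0.998 in edgeR and of 0.0961 in DESeq2. Such a separation was found in 1 of the 18 genes, beside 4.04% of all genes. Elovl3, a fatty acid elongase with male-biased expression, had the highest value among those at 1 CPM or more (0.66 ± 0.37, groups overlapping). Bcl6, a repressor that opposes STAT5, was at -0.11 ± 0.17. The pulsatile growth hormone of males keeps a set of liver genes high, and all 22 genes of the male-biased list were tested. Their median was 0.21, from -0.69 ± 0.18 for Cyp2u1 to 2.54 ± 1.45 for Moxd1. Cyp2u1 had 4.84, 4.87 and 4.75 CPM in the controls and 3.32, 3.07 and 2.61 CPM in the KO libraries (unadjusted p = 0.00648, adjusted p = 0.998 in edgeR). In 1 of the 22 every KO library lay below every control library and in 3 above, beside 10.6% of all genes in either direction. Moxd1 had 0.390, 17.6 and 6.50 CPM in the controls and 71.8, 51.8 and 3.76 CPM in the KO libraries, so the groups overlapped. Its log2 difference was 7.32 between KO 3 and control 1 on day 1 and 0.39 on day 2. Of the 23 female-biased genes 11 were tested, with a median of -0.07, from -0.74 (Nipal1) to 0.51 (Cyp2a4). Mup20, a male urinary protein gene, had 7772 to 14269 CPM, whereas Sult2a1 and Cyp2b9 of the female list had 0 or 1 counts. These 2 do not stand for the whole female list, which summed to 119 to 187 CPM in a library, with Cyp2a4 at 3.51 to 8.56 CPM.

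The 14 FoxO1 targets that insulin represses, Igfbp1 included, had a median of -0.13. An unadjusted p below 0.05 was found for 2 of the 14, against 3.73% of all genes: Irs2, which lost it without control 1 (-0.32), and Ppargc1a (-0.63 ± 0.26), the coactivator of gluconeogenic genes. In 2 of the 14 every KO library lay below every control library, which 4.04% of all genes did. Ppargc1a, among these, was low and also highest in control 1, with 0.620 RPKM against 0.238 to 0.440 RPKM elsewhere. Its KO libraries, at 0.317, 0.238 and 0.382 RPKM, lay below controls 2 and 3 too, at 0.415 and 0.440 RPKM. Its value without control 1 is not given here. G6pc and Pck1, the gluconeogenic enzymes, were at -0.15 ± 0.23 and -0.02 ± 0.19. Igfbp1 at 0.18 was the highest of the list. The 11 glucocorticoid-induced genes had a median of -0.08, from -0.86 ± 0.29 (Per1) to 0.58 ± 0.19 (Lcn2), and the 12 genes of the integrated stress response, which can raise Igfbp1, a median of 0.005, from -0.52 (Phgdh) to 0.27 (Asns).

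The profile of each gene over the 6 libraries was set beside those of the genes at a mean of 10 CPM or more, 7065 others for each. The most alike by Pearson's r of log2 CPM were Ccdc107 for Ghr (0.99), Lrp6 for Stat5b (0.996), Rbm33 for Socs2 (0.99) and Atf6 for Cish (0.993). They were Tbk1 for Igf1 (0.991), Tapbpl for Igfals (0.984), Gpld1 for Igfbp1 (0.986), Tdg for Igfbp2 (0.986) and Rbm14 for Igfbp4 (0.999). None of the 9 genes was the most alike of another. Each r is the highest of 7065 over 6 libraries and is a description, and between 20 (Igfbp1) and 141 (Igfals) genes had an r above 0.9.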

How the data were processed

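Cultured hepatocytes of 3 control and 3 Hep-Sucnr1 KO mice were profiled by stranded mRNA sequencing, and libraries were grouped by the genotype in the labels. The authors trimmed reads with Trim Galore 0.6.7, aligned them to GRCm38 with STAR 2.7.10a and counted read pairs per Ensembl gene on the reverse strand with featureCounts. The deposited values are raw counts per gene, not normalized. The handling of multimapping pairs is not given in the sources used here, so near-identical paralogs are uncertain. Library totals were 30504248 to 38770694 counts.

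Genes with a mean DESeq2-normalized count above 5 were kept. CPM used TMM factors, and log2 CPM a prior count of 2. Genotype and extraction day were tested over all 15105 genes with edgeR 4.0.16 (quasi-likelihood, R 4.3.3) in a model holding both, and p values were adjusted after Benjamini-Hochberg and called below 0.05. For a single gene the genotypes were also compared by an exact permutation test (two-sided). DESeq2 1.42.0 (the authors' package), other scalings and filters, models without day, for day 2 alone or with index series as a term, a robust fit and each library left out were alternatives. Exon lengths and coordinates came from the GENCODE annotation of GRCm38. The scripts were tested on simulated data.

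The 9 genes and the lists (growth hormone signalling, IGF system, STAT5-dependent, male- and female-biased, sex-chromosome, FoxO1, glucocorticoid, integrated stress response and cell type markers) were chosen with earlier results of these data known. Named were the 9 genes, Sucnr1, any gene of the first 2 lists, the highest and lowest log2 fold change at 1 CPM or more and any gene past the threshold in each other list, and for each of the 9 the gene most alike in profile. Xist, Ddx3y, Mup20, Bcl6, G6pc, Pck1, Sult2a1, Cyp2b9, Clec4f, Vsig4, Timd4, Cd5l, Csf1r, Col3a1, Des, Ngfr, Apob, Ttr, Apoa1, Ass1, Trf, Asgr1, Cps1, Serpina1a, Sox9, Krt19, Krt7, Cftr, Tspan8 and Epcam were named outside this rule, after their values were seen. A few genes that the rule names are not reported here.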

Additional observations from a re-analysis of the deposited data

Results flagged for a closer look

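Igfals moved in opposite directions on the 2 extraction days: the day 1 KO library (15.9 CPM) lay below the day 1 control (22.9 CPM), and both day 2 KO libraries (29.6 and 30.2 CPM) lay above both day 2 controls (24.3 and 26.3 CPM). The day 2 effect minus the day 1 effect was 0.76 ± 0.24 (SE) on the log2 scale in an edgeR model with an interaction term, with an unadjusted p of 0.0195 and an adjusted p of 1, and 0 of 15105 genes passed the adjusted threshold for this term (557 at an unadjusted p below 0.05). DESeq2 was not run for this term. Day 1 held 1 library of each genotype, so its effect has no replicate of its own.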

How the results depend on the processing

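Over 15 alternatives for each of the 9 genes (135 values), 0 had an adjusted p below 0.05 and the lowest was 0.917. The genotype value was below 0 in all 15 for Stat5b and Igfbp2 (for Igfbp2 only -0.00156 with index series as a term) and turned in 21 values of the other 7 genes. With the day 2 libraries alone the log2 fold change was 0.00769 for Ghr, 0.0697 for Igf1 and 0.23 for Igfals, and without a day term it was 0.0430 for Igfals. With index series (lower or higher index numbers) as a further term it was 0.50 for Socs2, 0.22 for Cish, 0.0734 for Igfals and 0.0504 for Igfbp4. Controls 1 and 2 had the lower index numbers, and control 3 and KO 3, 4 and 5 the higher ones. Index series and genotype are thus largely confounded, and with that term the genotype value rests on control 3 as the only control in the series of the KO libraries. Leaving out 1 library at a time gave -0.28 to 0.0817 for Ghr, -0.44 to 0.16 for Socs2, -0.20 to 0.0829 for Igf1, -0.12 to 0.24 for Igfals, -0.11 to 0.36 for Igfbp1, -0.0707 to 0.0152 for Igfbp4, -0.37 to -0.12 for Stat5b, -0.50 to -0.0969 for Cish and -0.34 to -0.0561 for Igfbp2. The causes were not tested.

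The number of the 9 genes with an unadjusted p below 0.05 was 0 and became 1 with library size alone or without a filter (Stat5b in both), and 0 to 1 with 1 library left out (Stat5b without control 2, Cish without control 3). Genes called for genotype numbered 7 with DESeq2 and 0 in every other fit. Genes called for extraction day numbered 220 with DESeq2, 122 without a filter and 0 to 29 with 1 library left out (29 without control 2). Igf2r, Insr, Irs2, Lepr and Sucnr1 stayed below 0 in all 15 alternatives, but with index series as a term Irs2 was at -0.0889, Igf2r at -0.35 and Insr at -0.19. No paired analysis was run, because the labels name no pairs of control and KO libraries. Control 3 and KO 3 share a replicate number but not an extraction day. The interaction term was added after the data were seen. These limits rest on 3 libraries a genotype, of which 1 a genotype was from day 1.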

Other observations

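Of the 8 cholangiocyte markers 7 were tested, and their levels were unequal. Spp1, which encodes osteopontin, had 266 to 526 CPM and Sox9, a transcription factor, 83.2 to 122 CPM, whereas Epcam had 0.620 to 2.61 CPM, Krt19, Cftr and Tspan8 were each below 1 CPM in all 6 libraries and Krt7 had 0 to 10 counts, under the minimum for testing. The log2 fold change of Spp1 was 0.22 ± 0.21, the highest of those at 1 CPM or more. The 11 hepatocyte markers tested ran from -0.19 (Alb) to 0.24 (Cyp2e1) with a median of 0.01. The 10 Kupffer cell markers were all below 0 for genotype, with a median of -0.40, from -1.18 ± 0.93 (Marco) to -0.08 ± 0.32 (Cd68), and 0 had an unadjusted p below 0.05. That model holds extraction day, and KO 3 of day 1 had the lowest marker sum (36.3 CPM). The plain mean RPKM was higher in the KO for Clec4f (5.72 against 5.56), Timd4, Cd5l and Csf1r, and lower for the other Kupffer markers. The 10 endothelial markers had a median of -0.25, from -0.62 (Ptprb) to 0.29 (Clec4g). Of the stellate cell markers 6 of 10 were tested, with a median of -0.22, and Reln and Dcn, both highest in control 1, were at -1.20 ± 0.42 and -0.31 ± 0.46. The Y-linked genes ran from -0.26 (Kdm5d) to 0.08 (Eif2s3y).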
